A study of Mus musculus with 23 samples.

Results

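The loci of 8 cytokine genes, Tnf, Lta, Ltb, Il1a, Il1b, Il6, Il12b and Il10, were examined for binding of the transcription factors p65 and LXRβ in mouse macrophages. Members were all listed ChIP-seq peaks whose centre lay in 1 of 5 windows of build mm9: chr17:35300000-35380000 for Tnf with Lta and Ltb, chr2:129080000-129250000 for Il1a and Il1b, chr5:30290000-30400000 for Il6, chr11:44170000-44270000 for Il12b and chr1:132880000-132960000 for Il10. The windows spanned 540 kb and held 97 of the 58278 peaks of the 5 lists. Of these, 47 were p65 peaks of wild type and 42 of knockout macrophages after KLA, 2 were p65 peaks of each untreated genotype, and 4 were LXRβ peaks.

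The study asked how loss of the nuclear receptor corepressor NCoR changes macrophages. The p65 libraries were made from peritoneal macrophages elicited with thioglycollate in male C57BL/6 mice aged 6 to 8 weeks and collected by lavage 3 to 4 days later. Both genotypes carried floxed NCoR alleles (NCoR fl/fl). The knockout also carried LysM-Cre (+/-), a recombinase expressed from a gene of myeloid cells, and the wild type did not (LysM-Cre -/-), so the controls were floxed too. Each genotype was left untreated or stimulated for 1 h with 100 ng/ml of KLA (Kdo2-Lipid A), a pure endotoxin lipid. LXRβ was mapped in RAW264.7, a mouse macrophage line labelled C57BL/6, as a biotin-tagged protein, after 2 h with the LXR agonist GW3965 at 1 µM. Peak lists hold no level of NCoR or of a cell marker, so neither the deletion nor the cell type could be checked here.

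Each group was 1 library, and differences between groups therefore have no replicate check and were not tested. Height means the normalized tag count that the authors deposited, scaled to 10000000 tags of a library per the file headers. A single tag added 4.72 (wild type) or 5.98 (knockout) to a height after KLA, 12.9 or 12.7 to one without treatment and 0.910 to one of LXRβ. The LXRβ value is that of the deposited heights against their scores; the total tags in the header would give 0.850, and the cause of the mismatch was not tested. The authors' threshold for p65 was 5 tags, which is a height of 23.6 and 29.9 after KLA but 64.3 and 63.6 without treatment. The wild type KLA list nevertheless holds heights down to 18.9. Intervals are 95% counting intervals (exact Poisson for a height, exact binomial for a ratio or a share); tags are PCR products without molecular identifiers, so the intervals cover counting error only. No input library was used in calling the wild type KLA list, whereas 1 was used for the knockout KLA list, so filtering and genotype cannot be told apart for peaks listed in only 1 of them.

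The p65 protein (RelA) is a subunit of NF-κB, which inhibitor proteins hold in the cytoplasm of resting cells. KLA engages the receptor TLR4, the inhibitors are degraded, and p65 dimers enter the nucleus and bind κB motifs in promoters and enhancers. The cytokine genes of these windows are textbook targets of that pathway in macrophages. LXRs are receptors for oxysterols that induce genes of cholesterol efflux and fatty acid synthesis and that, with corepressors, can restrain inflammatory genes.

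Promoters are shown because a κB motif in a start region is the classical route of p65 to these genes. RefSeq promoters of build GRCm38.p6 matched 7 of the 8 genes, all but Il10. The 250 bases before the start were searched on both strands for the κB consensus and for GGNNNTTCC, a looser κB-type pattern that overlaps it. Other forms of κB site were not searched, so a promoter without a match may still hold one. The 3 member promoters with a match are printed 5′ to 3′ on the gene's own strand, with the match in capitals. These coordinates are not those of the peak lists, and no peak was placed on a promoter.
Tnf promoter, chr17:35202008-35202257, minus strand: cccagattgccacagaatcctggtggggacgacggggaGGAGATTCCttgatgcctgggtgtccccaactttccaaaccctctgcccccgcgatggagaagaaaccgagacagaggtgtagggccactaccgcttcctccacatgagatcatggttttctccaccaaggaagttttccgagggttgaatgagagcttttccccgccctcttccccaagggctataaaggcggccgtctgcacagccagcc
Ltb promoter, chr17:35194257-35194506, plus strand: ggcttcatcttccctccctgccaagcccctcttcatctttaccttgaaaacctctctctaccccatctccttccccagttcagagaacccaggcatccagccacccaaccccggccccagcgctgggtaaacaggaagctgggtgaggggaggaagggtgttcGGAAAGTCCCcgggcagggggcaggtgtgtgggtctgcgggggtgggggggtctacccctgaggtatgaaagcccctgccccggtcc
Il6 promoter, chr5:30012864-30013113, plus strand: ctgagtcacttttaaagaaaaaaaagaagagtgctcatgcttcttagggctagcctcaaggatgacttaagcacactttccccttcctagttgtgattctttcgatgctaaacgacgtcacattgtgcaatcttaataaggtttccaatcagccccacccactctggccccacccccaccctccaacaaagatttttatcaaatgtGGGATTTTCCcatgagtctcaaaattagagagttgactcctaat

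The κB consensus was found in Il6 and Ltb, 2 of the 7 member promoters, and in 3.90% of 32851 RefSeq promoters of the same length. In Il6 the match began 44 bases before the start, and in Ltb, on the other strand, its outer end lay 87 bases before the start. The looser GGNNNTTCC was found in those promoters at the same places and in Tnf, where it began 212 bases before the start. That made 3 of 7, against 15.7% of all promoters. An AP-1-type TGANTCA, which reads the same on both strands apart from its middle base, was found in Il1a and Il6 and in 6.75% of all promoters. A C/EBP-type TTGCNNAA was found only in Il6 among the 7, and in 9.56% of all promoters. The PU.1-type GAGGAA was found in Il12b, Il1a, Ltb and Tnf, and in 23.3% of all promoters. Of the LXR DR4 motif only the exact repeat was searched. It was found in none of the 7 and in 0.0152% of all promoters, too rare for its absence from 7 to be informative. These are matches of letters, not measured sites.

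After KLA, p65 peaks were dense at 4 of the 5 windows. The windows together held 8.70 peaks per 100 kb in wild type and 7.78 in knockout macrophages, where the whole lists averaged 1.14 and 0.859 over the genome. Density was highest at Tnf, Lta and Ltb, with 16.2 peaks per 100 kb in wild type and 13.8 in knockout, and lowest at Il6, with 1.82 in both. When the genome was divided into tiles as long as each window, as many peaks as in the Tnf window were found in 0.112% of tiles in wild type and 0.149% in knockout. The shares were 0.890% and 0.329% for Il1a and Il1b, 0.304% and 1.28% for Il10, 5.93% and 2.23% for Il12b, and 25.6% and 20.7% for Il6. Peaks were also tall: 17 of the 47 wild type peaks (36.2%) had a height of 100 or more, against 12.5% of the whole list. In knockout macrophages 18 of 42 (42.9%) did, against 17.8%. Peaks just inside and just outside the ends of the windows ranged in height from 23.6 to 316.7. The tallest of them, a knockout peak 15078 bp outside the Il6 window, is described with that gene.

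**Figure D1:**
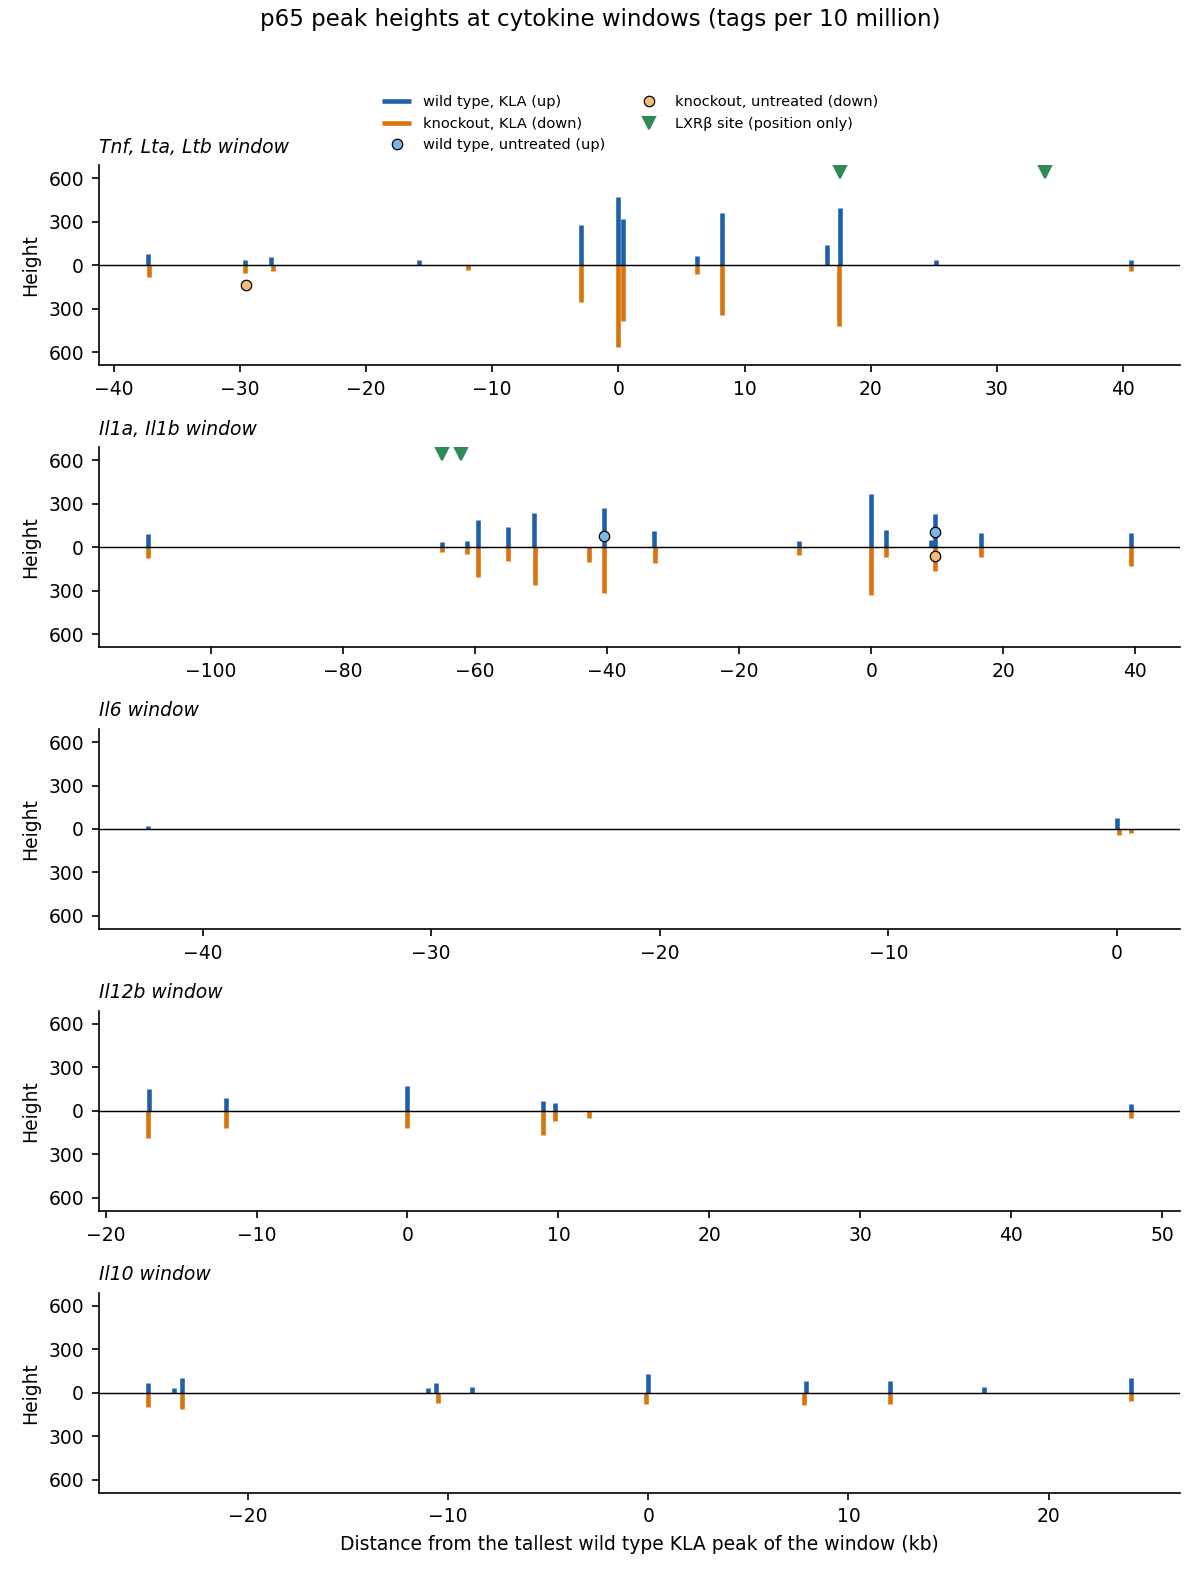
p65 peak heights (vertical axis, tags per 10000000) along the 5 windows (horizontal axis, kb from the tallest wild type KLA peak of the window), with bars for KLA peaks, circles for untreated peaks and triangles for the positions of LXRβ sites; wild type points up and knockout down. The Tnf window has 5 bars of 250 or more in each genotype, and the Il6 window has none above 75.5.

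Tnf encodes the cytokine TNF, Lta encodes lymphotoxin-α and Ltb encodes lymphotoxin-β, the membrane partner of lymphotoxin-α. All are ligands of the TNF family, and in RefSeq the gene order is Lst1, Ltb, Tnf, Lta, Nfkbil1. The window held 13 p65 peaks in wild type and 11 in knockout macrophages after KLA. In both genotypes 5 peaks reached a height of 250 or more, within 20.8 kb in wild type and 20.7 kb in knockout. The 5 tallest held 79.4% of the tags in the window's listed peaks in wild type and 86.1% in knockout. Most tags of its listed peaks thus sat in a short stretch. Tags outside listed peaks were not available.

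The tallest peak of all 5 windows was chr17:35339078-35339210, with a height of 471.6 (384 to 574) in wild type and 561.7 (454 to 687) in knockout macrophages. It ranked 28 of 30021 wild type peaks and 12 of 22585 knockout peaks. The ratio of knockout to wild type was 1.19 (0.889 to 1.59), which did not exclude equal heights, and 1.09 per bp of peak width. At most 1 tag per bp was counted, and the effect of this cap on tall peaks was not tested. A neighbour with its centre 0.4 kb away, chr17:35339510-35339642, had heights of 316.0 and 382.4 and a ratio of 1.21 (0.846 to 1.73). These 2 peaks formed the densest point of the window in either genotype.

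The window had 3 other tall peaks. At chr17:35356688-35356820 the wild type height was 391.4 and the knockout height 418.3, a ratio of 1.07 (0.766 to 1.49). At chr17:35347270-35347402 it was 363.1 and 346.6, a ratio of 0.955 (0.667 to 1.36). The fifth, chr17:35336044-35336176, had heights of 278.3 and 251.0 and a ratio of 0.902 (0.592 to 1.36). All 5 intervals held 1.

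Below these, 5 shared sites of the window were lower, from 33.0 to 75.5 in wild type and from 41.8 to 83.7 in knockout, and every interval held 1. The wild type list had 3 peaks with no knockout peak (10 of 13 were found, 76.9%, against 54.0% of the whole list). The tallest, chr17:35355580-35355712, had a height of 136.8 (91.6 to 196) from 29 tags, and the nearest knockout peak centre was 1004 bp away, at the shared peak of height 418.3. Its fold over the surrounding 10000 bp was 6.45, where the authors required 4. The next, chr17:35323245-35323377, had a height of 37.7 from 8 tags. The single knockout peak without a wild type peak, chr17:35327138-35327282, had a height of 35.9 from 6 tags. One-genotype peaks of the window thus rested on few tags, with the exception of the peak of height 136.8.

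Il1a and Il1b encode interleukin-1α and interleukin-1β, which signal through the same receptor. The genes are neighbours in RefSeq, between Ckap2l and F830045P16Rik. Their window, the longest at 170 kb, held 15 p65 peaks in each genotype after KLA, and 8 of the 15 had a height of 100 or more in each. Peaks were spread more widely than at Tnf, over 149 kb. The 5 tallest held 61.1% of the tags in listed peaks in wild type and 62.0% in knockout.

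The same 5 sites were the tallest in both genotypes. At chr2:129196920-129197052 the wild type height was 367.9 (291 to 459) and the knockout height 328.7 (248 to 428), a ratio of 0.893 (0.621 to 1.28). At chr2:129156425-129156557 it was 268.8 and 316.7, a ratio of 1.18 (0.795 to 1.74). The leading site was thus the same in both genotypes, and these 2 ratios lay on either side of 1.

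At chr2:129145836-129145968 the heights were 235.8 and 262.9, with a ratio of 1.11 (0.726 to 1.71). At chr2:129206608-129206740 they were 231.1 and 167.3, with a ratio of 0.724 (0.438 to 1.17). At chr2:129137406-129137538 they were 183.9 and 209.1, with a ratio of 1.14 (0.699 to 1.84). No interval of these sites excluded 1.

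The lowest ratio of the window was 0.557 (0.248 to 1.17), at chr2:129199076-129199208, with heights of 117.9 and 65.7. The highest was 1.33 (0.696 to 2.54), at chr2:129236244-129236376, with heights of 99.0 and 131.5. A wild type peak with no knockout peak lay at chr2:129206043-129206175, with a height of 47.2 from 10 tags and a knockout peak centre 622 bp away. A knockout peak with no wild type peak lay at chr2:129154073-129154217, with a height of 101.6 (59.2 to 163) from 17 tags and the nearest wild type centre 2346 bp away. That was the tallest knockout peak of the 5 windows that the wild type list lacked.

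Il6 encodes interleukin-6, an inducer of the acute phase response. The gene lies between Dnajb6 and Tyms. Its window of 110 kb held the fewest peaks, 2 in each genotype, and 1 site was listed in both. That site, chr5:30339475-30339607, had a height of 75.5 (16 tags) in wild type and 41.8 (7 tags) in knockout, a ratio of 0.554 (0.193 to 1.42). The wild type list also had chr5:30297107-30297239 at 23.6, from 5 tags. The knockout list also had chr5:30340068-30340212 at 29.9, again 5 tags. At 5 to 16 tags, a difference between the genotypes was not detectable at this depth.

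A much taller p65 peak lay outside the Il6 window, with its centre 15072 bp before the start in wild type and 15078 bp in knockout. Its height was 278.3 at chr5:30274862-30274994 in wild type and 316.7 at chr5:30274850-30274994 in knockout macrophages. With windows widened by 20 kb at each end, an alternative chosen after seeing the data, the Il6 window held 3 KLA peaks in each genotype, an untreated knockout p65 peak of height 63.6 and an LXRβ peak of height 9.1. The counts and heights given for Il6 are those of the window as set, and no gene was assigned to the tall peak.

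Il12b encodes the p40 subunit shared by interleukin-12 and interleukin-23, cytokines that direct T helper responses. The gene lies between Adra1b and Ublcp1. Its window of 100 kb held 6 p65 peaks in wild type and 7 in knockout macrophages after KLA. All 6 wild type peaks were found in knockout macrophages, against 54.0% of the whole wild type list. Heights were moderate: the tallest was 169.8 in wild type and 185.2 in knockout.

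The 2 tallest wild type sites had ratios on either side of 1. At chr11:44203546-44203678 the wild type height was 169.8 and the knockout height 119.5, a ratio of 0.704 (0.386 to 1.25). At chr11:44186467-44186599 it was 150.9 and 185.2, a ratio of 1.23 (0.724 to 2.08). At chr11:44191548-44191680 the heights were 89.6 and 119.5, with a ratio of 1.33 (0.676 to 2.64). None of these intervals excluded 1.

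The site chr11:44212511-44212643 stood apart. Its height was 66.0 (36.1 to 111) from 14 tags in wild type and 167.3 (111 to 242) from 28 tags in knockout macrophages, a ratio of 2.53 (1.29 to 5.21). It was the only one of the 38 shared sites with a ratio of 2 or more (2.63%, against 6.28% of all shared sites) and the only one whose interval lay above 1 (2.63%, against 1.81%). With 38 intervals read, 1 of this kind is near the share in the whole list. The neighbouring site chr11:44213377-44213509 had heights of 51.9 and 71.7 and a ratio of 1.38 (0.558 to 3.46). At chr11:44251420-44251552 the heights were 47.2 and 47.8. The knockout peak without a wild type peak, chr11:44215515-44215659, had a height of 47.8 from 8 tags.

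Il10 encodes interleukin-10, the anti-inflammatory cytokine of the set, and lies between Il19 and Mapkapk2 in gene order. Its window of 80 kb held 11 p65 peaks in wild type and 7 in knockout macrophages after KLA. All 7 knockout peaks were found in wild type, where 71.7% of the whole knockout list was. Of the 11 wild type peaks, 7 were found in knockout (63.6%, 30.8 to 89.1, against 54.0% of the whole list) and 4 were not. Heights had a median of 70.7 (wild type) and 77.7 (knockout), above the whole-list medians of 42.4 and 53.8, and 1 peak in each genotype reached 100. At 13.8 wild type peaks per 100 kb, the window had no peak near the heights of 250 or more seen at Tnf and at Il1a and Il1b.

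The tallest wild type site, chr1:132922596-132922728, had a height of 127.3 in wild type and 77.7 in knockout, a ratio of 0.610 (0.289 to 1.22). The tallest knockout site, listed in wild type at chr1:132899267-132899399, had heights of 99.0 and 113.5 and a ratio of 1.15 (0.583 to 2.24). At chr1:132946670-132946802 the heights were 99.0 and 59.8, with a ratio of 0.604 (0.254 to 1.34). Which genotype was higher thus differed from site to site, and no interval excluded 1.

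The sites chr1:132930475-132930607 and chr1:132934648-132934780 had the same wild type height of 80.2. Their knockout heights were 83.7 and 77.7. At chr1:132897598-132897730 the heights were 70.7 and 95.6, with a ratio of 1.35 (0.626 to 2.93). The 7 ratios had a median of 1.04, with 4 above and 3 below 1.

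The 4 wild type peaks of the Il10 window without a knockout peak had 7 to 9 tags. The threshold of the wild type list was 5 tags and its median height 42.4. The tallest was chr1:132913805-132913937, with a height of 42.4 from 9 tags. The next was chr1:132939438-132939570, with a height of 37.7 from 8 tags. The others had 7 tags each, a height of 33.0, and lay 374 and 415 bp from a knockout peak centre. Over the whole wild type list, 33.7% of peaks with 5 to 9 tags were found in knockout. Why the knockout list lacks the 4 Il10 peaks was not tested, and of the KLA lists only the knockout one was called with input.

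Across the 5 windows the genotypes shared most p65 sites after KLA. Of the 47 wild type peaks, 38 (80.9%, 66.7 to 90.9) overlapped a knockout peak by 1 bp or more, against 54.0% of the whole wild type list. Of the 42 knockout peaks, 38 (90.5%, 77.4 to 97.3) were likewise found in wild type, where 71.7% of the whole list was. Sharing depended on tags: 5 of 12 wild type peaks with 5 to 9 tags were found in knockout (41.7%, against 33.7% of the list), and 20 of 21 with 20 or more tags (95.2%, against 95.7%). Between these, 13 of 14 peaks with 10 to 19 tags were found (92.9%, against 73.9%). In the tallest class the windows were therefore at the level of the whole list.

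**Figure D2:**
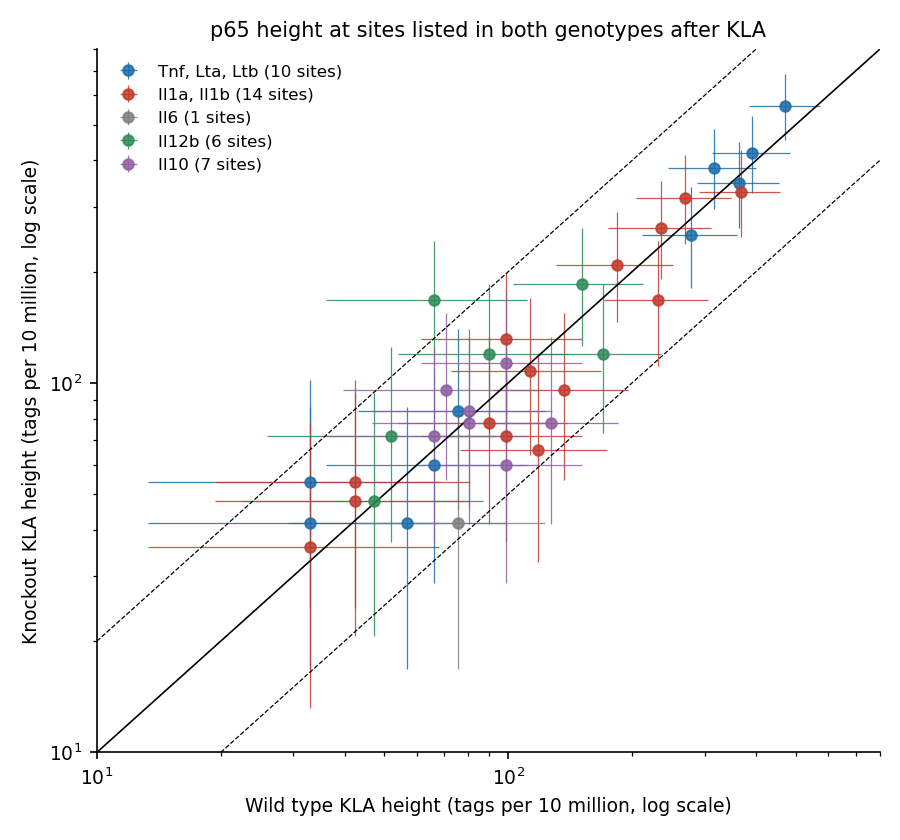
Height in wild type (horizontal) and knockout macrophages (vertical) after KLA at the 38 sites listed in both, in tags per 10000000 on log axes, coloured by window, with 95% Poisson intervals; the solid line marks equal heights and the dashed lines a ratio of 2 and 0.5. Sites follow the line of equal heights, and 1 Il12b site lies above the upper dashed line.

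Heights at the 38 shared sites were close between the genotypes. The median ratio of knockout to wild type was 1.08 (quartiles 0.874 and 1.21), against 1.09 at all 16203 shared sites, with 22 sites above and 16 below 1. The side of 1 depended on scaling: per bp of peak width, which was 132 bp in wild type and 144 bp in knockout, the median was 0.988. No site had a ratio of 0.5 or less (2.43% of all shared sites did), and no interval lay below 1 (1.28% of all). A shared site needed a height of 29.9 or more in knockout, so sites low in wild type could not reach 0.5. Site ratios ranged from 0.554 at Il6 to 2.53 at Il12b.

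**Figure D3:**
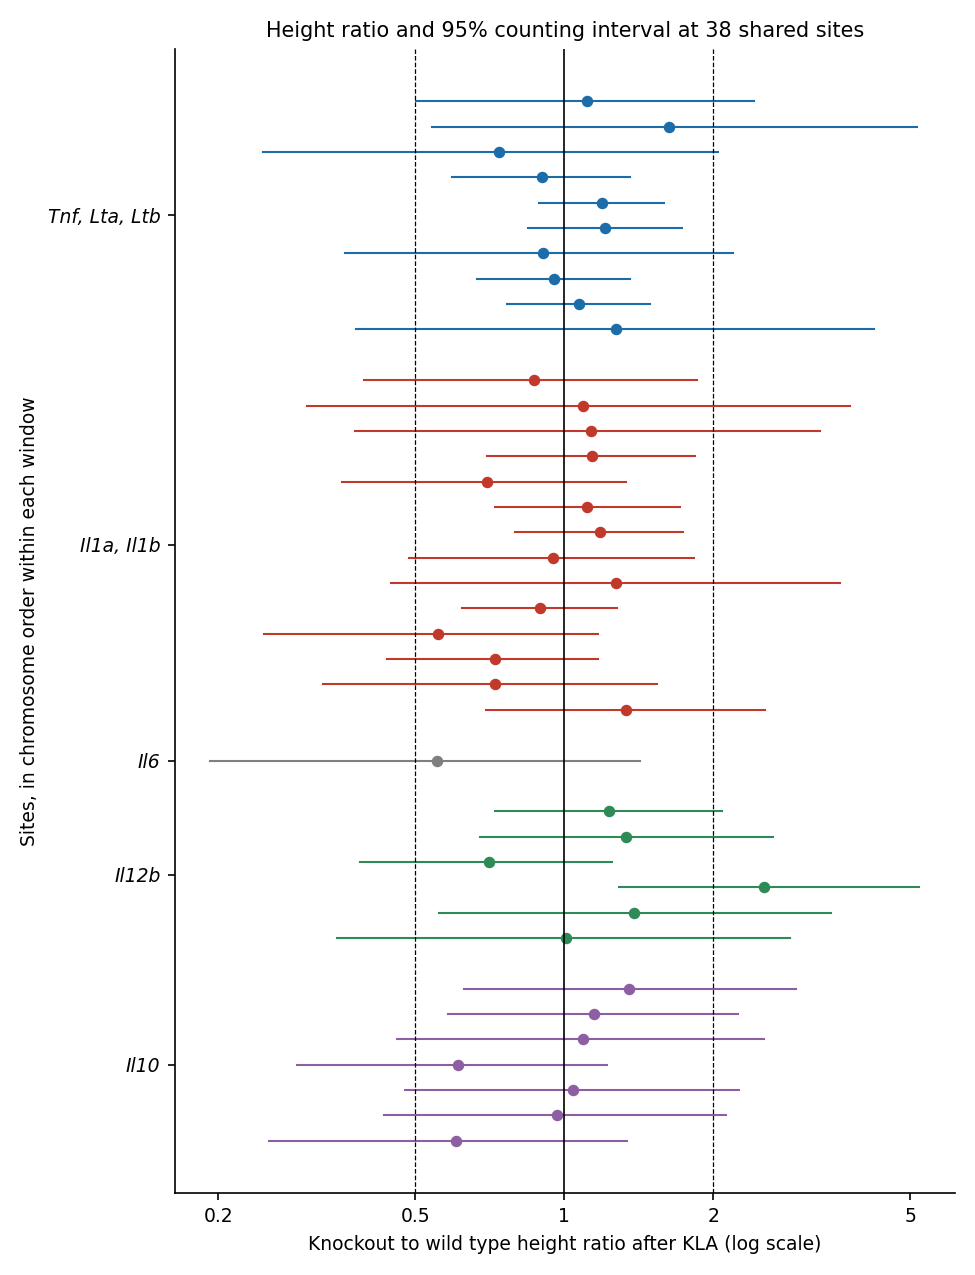
Ratio of knockout to wild type p65 height after KLA (horizontal, log scale) at each of the 38 shared sites, in chromosome order within each window (vertical), with its 95% counting interval; dashed lines mark 0.5 and 2. A single interval, at Il12b, lies wholly above 1, and none lies wholly below.

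Over all listed peaks of the Tnf, Lta and Ltb window, heights summed to 2292 in wild type and 2277 in knockout, a ratio of 0.993 (0.866 to 1.14). These sums covered 1729 and 1595 bp, with mean heights of 176 and 207. At Il1a and Il1b the sums were 2108 and 2074, a ratio of 0.984 (0.852 to 1.13), over 1995 and 2175 bp with mean heights of 141 and 138. At both windows the genotypes had nearly equal sums. At Il6 they were 99.1 and 71.7, a ratio of 0.724 (0.325 to 1.54), over 266 and 290 bp with mean heights of 49.5 and 35.8.

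At Il12b and Il10 the counting interval of the ratio of sums did not hold 1, on opposite sides, but the sums run over peaks called separately in each library and were not a test of the genotypes. At Il12b the sums were 575 and 759, a ratio of 1.32 (1.02 to 1.71), over 798 and 1015 bp with mean heights of 95.9 and 108. At Il10 they were 768 and 580, a ratio of 0.754 (0.580 to 0.975), over 1463 and 1015 bp with mean heights of 69.9 and 82.8. Both rested on few sites. Over sites listed in both genotypes, the ratio was 1.24 (0.952 to 1.60) at Il12b and 1.07 (0.799 to 1.42) there without the site of the highest ratio. At Il10 it was 0.931 (0.709 to 1.22) over shared sites, so the lower sum came with the 4 low peaks that the knockout list lacked. Per bp of peak width the Il12b ratio was 1.21 (0.936 to 1.56), which held 1. The Il10 ratio per bp was 0.691 (0.532 to 0.894), which did not hold 1. All 5 windows together had a ratio of 0.986 (0.905 to 1.07), and of 0.904 (0.830 to 0.984) per bp. Over the 38 sites listed in both genotypes the ratio was 1.02 (0.938 to 1.12).

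**Figure D4:**
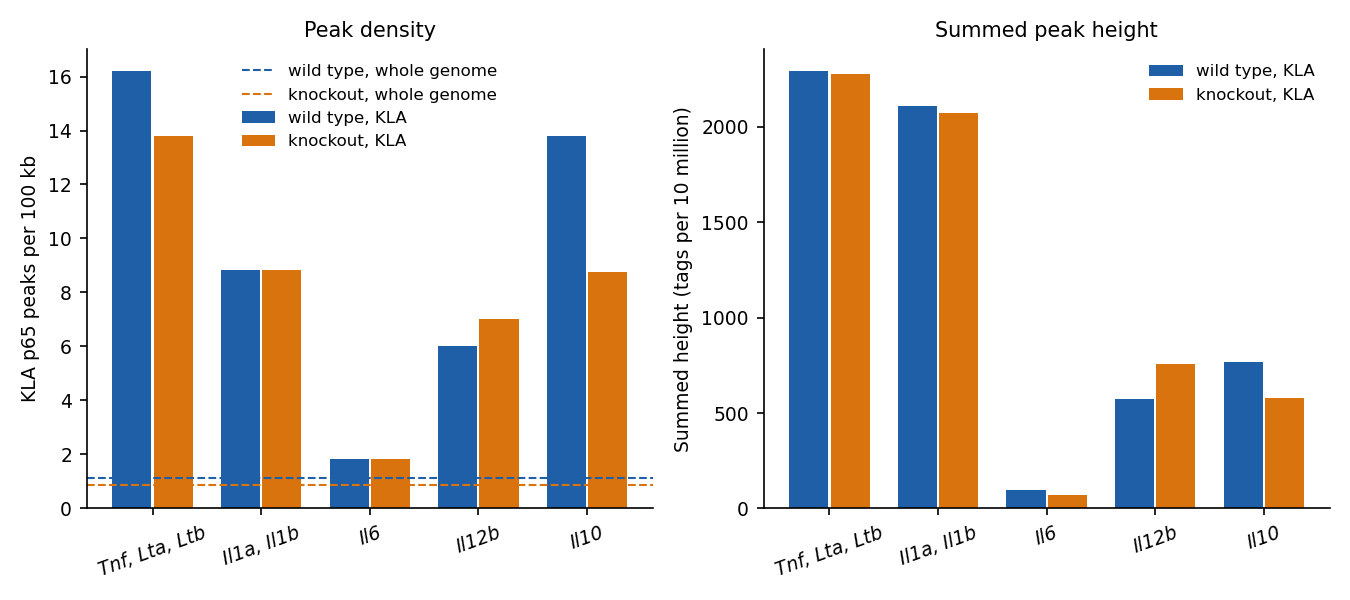
p65 peaks per 100 kb (left) and summed peak height in tags per 10000000 (right) after KLA in each window, wild type in blue and knockout in orange, 1 library each; dashed lines give the density over the genome. Density ranges from 1.82 at Il6 to 16.2 at Tnf, Lta and Ltb, and the knockout sum is above the wild type sum at Il12b and below it at Il10.

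Without KLA, each genotype had 2 p65 peaks in the windows, or 0.370 per 100 kb. The whole untreated lists held 702 (wild type) and 2227 (knockout) peaks, against 30021 and 22585 after KLA. A low count was thus not particular to these loci. In each genotype 2 of 2 overlapped a KLA peak, against 75.8% of the whole untreated wild type list and 41.4% of the knockout list. Read from the KLA lists, 2 of 47 wild type peaks (4.26%, against 1.77%) and 2 of 42 knockout peaks (4.76%, against 4.08%) had an untreated peak. The Il6, Il12b and Il10 windows as set had none in either genotype. Since an untreated peak needed a height of 64.3 or 63.6, a low level of p65 at these loci without KLA was not detectable at this depth.

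At Il1a and Il1b, 1 site was listed untreated in both genotypes. At chr2:129206640-129206742 the untreated wild type height was 102.9 from 8 tags, and the KLA peak there had 231.1, a ratio of 2.25 (1.05 to 5.49). In knockout macrophages the heights were 63.6 from 5 tags and 167.3, a ratio of 2.63 (1.00 to 8.72). The other untreated wild type peak, chr2:129156453-129156555, had a height of 77.2 from 6 tags and 268.8 after KLA, a ratio of 3.48 (1.50 to 9.88). Untreated and KLA peaks differ in width, and per bp these ratios were 1.75, 2.30 and 2.72. The difference between the genotypes in these ratios was not tested.

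In the Tnf window the untreated site went the other way. At chr17:35309540-35309666 the untreated knockout height was 139.9 (69.8 to 250) from 11 tags, and the KLA peak there had 53.8 from 9 tags, a ratio of 0.385 (0.141 to 1.02). The wild type list had no untreated peak there, and its KLA height was 33.0. The site lay 29.5 kb from the tallest peak of the window and was the only untreated site of the 5 windows with a higher height than after KLA. Its interval reached 1.

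LXRβ, mapped in the RAW264.7 line, had 4 peaks at these loci, or 0.741 per 100 kb. The density of the LXRβ list over the genome was not computed. The Tnf window held 2 of the peaks and the Il1a and Il1b window 2, with none in the windows of Il6, Il12b or Il10 as set. Their heights ran from 8.2 to 21.8, where the LXRβ list had a median of 10.9 and a maximum of 146.5. The tallest of the 4 ranked 222 of 2743 LXRβ peaks. Each had 1.4 scaled input tags. Of the 4, 2 overlapped a KLA p65 peak in each genotype (2 of 4, against 42.4% of the LXRβ list for wild type and 34.8% for knockout), which means the same position in different cells.

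The LXRβ peak chr17:35356648-35356768 had a height of 8.2 (3.74 to 15.5) from 9 tags, the lowest height of its list, and lay at the p65 site of heights 391.4 and 418.3. The other LXRβ peak of the Tnf window, chr17:35372837-35372957, had a height of 10.9 from 12 tags, with the nearest wild type p65 centre 6835 bp away. At Il1a and Il1b, chr2:129131910-129132030 had a height of 13.7 from 15 tags and overlapped a low p65 site of heights 33.0 and 35.9. The tallest, chr2:129134865-129134985, had a height of 21.8 (14.0 to 32.5) from 24 tags and overlapped no p65 peak, the nearest centre being 828 bp away in wild type and 790 bp in knockout. Thus 1 LXRβ peak, with the fewest tags of the 4, coincided with a tall p65 peak of the Tnf window.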

How the data were processed

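ChIP-seq peak lists of 5 libraries were used, 1 per group, with groups taken from the sample titles; the 18 other samples of the series were not analysed here. The submitters' processing notes name Bowtie 0.12.7, build mm9 and HOMER, whose version is not given in the sources used here. Per the file headers, peaks were called per library at a false discovery rate of 0.001, with at most 1 tag per bp, which caps tall narrow peaks, and 4-fold over 10000 bp of local signal and, except in the wild type KLA list, over input. The deposited normalized tag count is a signal per 10000000 tags, and the deposited total and input tags are signal values too. The deposited findPeaks score, the authors' fold over local signal (a ratio) and the deposited focus ratio (a fraction of tags) describe peaks within a list. The p-values deposited by the authors were not used further.

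The libraries held 777228 (wild type) and 786121 (knockout) tags untreated, 2120392 and 1673506 after KLA, and 11758634 for LXRβ. Tags of a peak were its height over the height of 1 tag, which was 10000000 over the total tags for p65. For LXRβ the height of 1 tag was taken from the deposited score instead. Python 3.11.15 with numpy 2.4.6, pandas 2.3.3, scipy 1.17.1 and matplotlib 3.10.9 was used. Peaks were shared where they overlapped by 1 bp or more, and ratios used the nearest centre. The overlap code and intervals were tested on simulated data and gave the same overlaps as bedtools 2.31.1. Genome density used the last peak end of each chromosome as its length.

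The members and lists were chosen with earlier results of these data known. Sites named were, per window, the 5 tallest peaks of each KLA list, every untreated and LXRβ peak, the 2 tallest KLA peaks of each genotype listed in only 1, and every shared site with a ratio of 2 or more or 0.5 or less; the Il6 peak outside its window, the extreme Il1 ratios and the further Il10 and Il12b peaks were named after their values were seen. Alternatives were other overlaps and centre distances, stricter tag or height minimums, removal of peaks with input tags, shorter windows, and heights taken per bp of width, per tags in peaks or from the score. Wider windows and sums over shared sites were chosen after seeing the data. RefSeq GRCm38.p6 gave promoters and gene order only. No annotation of mm9 was used, so peaks were not assigned to exons, introns or UTRs.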

Additional observations from a re-analysis of the deposited data

How the results depend on the processing

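With 10 or more tags required, the untreated lists had 0 (wild type) and 1 (knockout) peaks at the loci, and 94.3% of wild type KLA peaks there were found in knockout. Over the whole wild type KLA list, 73.9% of peaks with 10 to 19 tags and 95.7% of those with 20 or more were found. With windows shortened by 10 kb at each end, 1 untreated knockout peak was left, and with windows widened by 20 kb at each end there were 8 LXRβ peaks. Without peaks of 1 or more scaled input tags, 0 LXRβ peaks were left. Each of the 4 held the same value of 1.4, so this cut could not separate them. The share of the whole LXRβ list that it removes is not given here. At a reciprocal overlap of 50%, 1 LXRβ peak met a wild type KLA peak. Per bp of peak width, the summed knockout to wild type ratio was 0.904 (0.830 to 0.984) for all 5 windows. It was 1.21 (0.936 to 1.56) for Il12b and 0.691 (0.532 to 0.894) for Il10. On the same scale the median site ratio went from 1.08 to 0.988. Over sites listed in both genotypes the summed ratio was 1.24 at Il12b and 0.931 at Il10, and without the site of the highest ratio 1.07 and 0.877, with intervals that held 1. For all 5 windows the shared-site ratio was 1.02. No paired analysis was possible because each group was 1 library. Depth limited the untreated lists most, where 1 tag was worth 12.9 or 12.7, and a site missing from a list may hold tags below its threshold.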
